A study of Mus musculus with 18 samples.

Results

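The results describe what the second tryptophan substitution, W796A, did to CpG methylation when it was added to W465A in DNMT1. The members are the 3 W465A/W796A libraries and the 3 W465A libraries, 6 of the 18 libraries in the series. The level of a CpG is its methylated reads over all its reads, and a CpG was used when it had at least 5 reads in each of these 6 libraries, which left 2199943 CpGs. All 18 libraries come from mouse embryonic stem (ES) cells that lack their own Dnmt1, were grown in serum with leukemia inhibitory factor, and were transfected with the vector pPyCAGIP carrying WT or mutant DNMT1. Stable lines were selected with 1 μg/mL puromycin. There are 6 groups with 3 biological replicates each. Beside W465A and W465A/W796A they carry WT DNMT1, W796A alone, the pair W464A/W465A, or the triple mutant W464A/W465A/W796A. The labels say that several stable lines were made per group but not whether the replicates are separate lines, so the p-values measure the spread between these libraries. DNMT1 comes from a vector in every group, and its amount in each line was not analysed here.

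DNMT1 copies CpG methylation from the parental strand to the new strand after replication, and UHRF1 brings it to hemimethylated DNA. W465 lies in the RFTS domain, a histone-reading module that can also fold back onto the catalytic domain, and W796 lies in one of the BAH domains, which bind modified histone tails in other proteins and in DNMT1. In ES cells most CpGs are methylated, while CpG-rich promoters are largely free of methylation. Promoters of germline genes are an exception, being CpG-rich and methylated. WT libraries served as the upper reference. The share of the gap restored is the rise from the W465A mean to a W465A/W796A library, in percent of the rise from the W465A mean to the WT mean, over the 1757466 CpGs with 5 reads in those 9 libraries.

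Sequences with the largest and the smallest differences show what the places looked like. The capitals mark the CpGs that entered the level. The Rps6kc1 sequence lies in an intron at chr1:190908687-190908986, and the sequence nearest to Fam84a is intergenic at chr12:14600001-14600300. Both come from 1 kb tiles with some of the largest differences. The Ddc sequence is intronic at chr11:11824398-11824697, and the one nearest to Slfn3 lies at chr11:83234027-83234326 in an intron of the gene model Gm11427. Both come from tiles in which the levels did not rise. All 4 are on the plus strand of GRCm38.
Rps6kc1: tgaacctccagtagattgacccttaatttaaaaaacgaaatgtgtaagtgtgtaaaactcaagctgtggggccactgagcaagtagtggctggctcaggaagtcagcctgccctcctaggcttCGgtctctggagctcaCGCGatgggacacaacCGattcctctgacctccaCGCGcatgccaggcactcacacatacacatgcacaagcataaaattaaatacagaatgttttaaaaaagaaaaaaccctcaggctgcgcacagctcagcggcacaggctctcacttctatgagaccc
Fam84a: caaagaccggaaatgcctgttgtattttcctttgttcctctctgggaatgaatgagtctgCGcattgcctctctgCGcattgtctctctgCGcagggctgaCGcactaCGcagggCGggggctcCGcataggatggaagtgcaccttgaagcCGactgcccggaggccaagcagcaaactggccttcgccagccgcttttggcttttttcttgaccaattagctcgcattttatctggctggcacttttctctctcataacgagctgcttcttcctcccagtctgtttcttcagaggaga
Ddc: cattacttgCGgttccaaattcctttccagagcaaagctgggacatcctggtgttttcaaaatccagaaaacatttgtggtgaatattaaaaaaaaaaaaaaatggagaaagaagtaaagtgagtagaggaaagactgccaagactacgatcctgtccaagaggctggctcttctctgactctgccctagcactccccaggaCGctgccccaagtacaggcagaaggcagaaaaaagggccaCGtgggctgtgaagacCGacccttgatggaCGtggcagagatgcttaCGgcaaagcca
Slfn3: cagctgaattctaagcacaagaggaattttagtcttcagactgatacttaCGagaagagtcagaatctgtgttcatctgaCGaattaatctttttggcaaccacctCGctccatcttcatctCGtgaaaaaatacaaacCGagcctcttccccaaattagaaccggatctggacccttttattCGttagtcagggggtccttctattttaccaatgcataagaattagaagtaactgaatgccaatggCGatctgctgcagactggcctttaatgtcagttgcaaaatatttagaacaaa

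The promoters of Fkbp6 and Nnat, from RefSeq on GRCm38.p6, are shown because both carried methylation with WT DNMT1 but differed with W465A/W796A. Fkbp6, a germline gene of meiosis, is on the minus strand at chr5:135349864-135350163, and Nnat, an imprinted gene, is on the plus strand at chr2:157559828-157560127. In the printed Fkbp6 stretch 15 CpGs were used. Their level was 20.5%, 17.7% and 9.55% in W465A replicates 1 to 3 and 51.1%, 47.5% and 48.7% in W465A/W796A. In the printed Nnat stretch 3 CpGs were used, at 4.04%, 0% and 0.943% in W465A and 0% in each W465A/W796A library, over 30 to 106 reads per library. WT libraries were at 57.7%, 73.6% and 84.2% in the Fkbp6 stretch and at 35.7%, 22.0% and 4.17% in the Nnat stretch.
Fkbp6: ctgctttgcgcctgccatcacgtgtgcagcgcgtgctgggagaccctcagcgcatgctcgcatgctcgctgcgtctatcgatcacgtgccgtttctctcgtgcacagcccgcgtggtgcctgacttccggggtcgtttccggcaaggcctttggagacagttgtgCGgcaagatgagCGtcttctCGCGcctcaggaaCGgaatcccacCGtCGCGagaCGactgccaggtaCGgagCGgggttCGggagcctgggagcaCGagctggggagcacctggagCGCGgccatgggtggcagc
Nnat: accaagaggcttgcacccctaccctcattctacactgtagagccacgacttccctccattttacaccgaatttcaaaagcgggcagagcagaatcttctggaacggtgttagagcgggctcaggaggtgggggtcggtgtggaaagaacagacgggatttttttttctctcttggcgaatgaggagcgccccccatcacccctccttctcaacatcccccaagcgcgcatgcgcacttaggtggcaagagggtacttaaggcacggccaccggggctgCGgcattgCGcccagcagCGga

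The 6 libraries held 63624159 to 91855645 CpG calls, and the median coverage of the CpGs used was 11 to 16 reads. W465A replicate 1 stood apart from the other W465A libraries, with a higher level (28.3%) and with 0.0215% of its reads on chromosome Y, against 0.141% or more in the other 5. Chromosome 11 took 9.49%, 7.43% and 9.01% of the reads in W465A/W796A replicates 1 to 3 and at most 6.76% in W465A. Chromosome 8 took 7.81% and 7.72% in W465A/W796A replicates 2 and 3, and at most 5.57% in the other 4 libraries. WT replicates 1 and 2 also had over 9% of their reads on chromosome 11. Values without W465A replicate 1 and without chromosomes 8 and 11 are given beside the mean level and the counts of tiles, promoters and gene bodies.

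Methylation was higher across the genome when W796A was added to W465A. The mean level, each CpG counted once, was 28.3%, 19.7% and 20.2% in W465A replicates 1 to 3 (22.7% ± 4.86, SD, n = 3). It was 42.3%, 37.1% and 36.8% in W465A/W796A (38.7% ± 3.13, SD, n = 3). All 3 libraries with both substitutions lay above all 3 with W465A alone. The difference was 16.0 percentage points (SE 3.34), a 1.70-fold level, with an exact two-sided permutation p of 0.1, the smallest that 3 libraries against 3 allow. Without W465A replicate 1 the difference was 18.8 points, and without chromosomes 8 and 11 it was 16.1 points. The size depended on which CpGs were read: it was 11.1 points at CpGs with 10 reads in each library and 4.37 points at CpGs with 20.

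Over the 1757466 CpGs also covered in the WT libraries, WT reached 50.4% ± 6.24 (SD, n = 3). On these CpGs the mean was 21.4% in W465A and 36.6% in W465A/W796A, so W465A/W796A lay between W465A and WT. The restored share was 64.2% in W465A/W796A replicate 1, 46.7% in replicate 2 and 46.2% in replicate 3 (52.4% ± 10.3, SD, n = 3). Replicate 1 was the highest of the 3, and W465A and WT means are shared by all 3 shares. Leaving out single libraries moved the mean share between 46.4% (without W465A/W796A replicate 1) and 57.1% (without WT replicate 2). It was 54.4% at CpGs with 10 reads.

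Levels were higher mostly at intermediate values, and few CpGs were fully methylated. When each CpG was thinned to 5 reads, none of the 5 was methylated at 39.0%, 51.4% and 48.4% of CpGs in W465A replicates 1 to 3. That share was 30.3%, 33.0% and 32.9% in W465A/W796A. All 5 reads were methylated at 2.53%, 1.28% and 0.875% of CpGs in W465A and at 9.21%, 6.09% and 5.80% with both substitutions. The groups did not overlap in either share. Where CpGs were sparse, CpGs with no methylated read made up 17.8% to 34.4% in W465A and 6.59% to 10.7% in W465A/W796A.

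The difference in points was smallest where CpGs were dense, with density given as the CpGs within 250 bp, the CpG itself included. CpGs with 1 to 5 CpGs within 250 bp were at 38.0%, 26.7% and 27.2% in W465A and at 55.7%, 49.9% and 47.8% in W465A/W796A, a difference of 20.5 points. CpGs with over 20 CpGs in that window were at 3.93%, 2.496% and 2.58% in W465A and at 7.11%, 5.30% and 6.13% with both substitutions, a difference of 3.18 points. The classes between differed by 21.3 points (6 to 10 CpGs) and 20.9 points (11 to 20). The contrast between sparse and dense CpGs was 17.3 points (exact two-sided permutation p 0.1, 0.125 adjusted over 5 contrasts). As a ratio the order was the other way, a 1.67-fold level at sparse and a 2.06-fold level at dense CpGs. On the log2 scale the contrast was -0.31 (exact permutation p 0.1, 0.167 adjusted over 5).

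**Figure D1:**
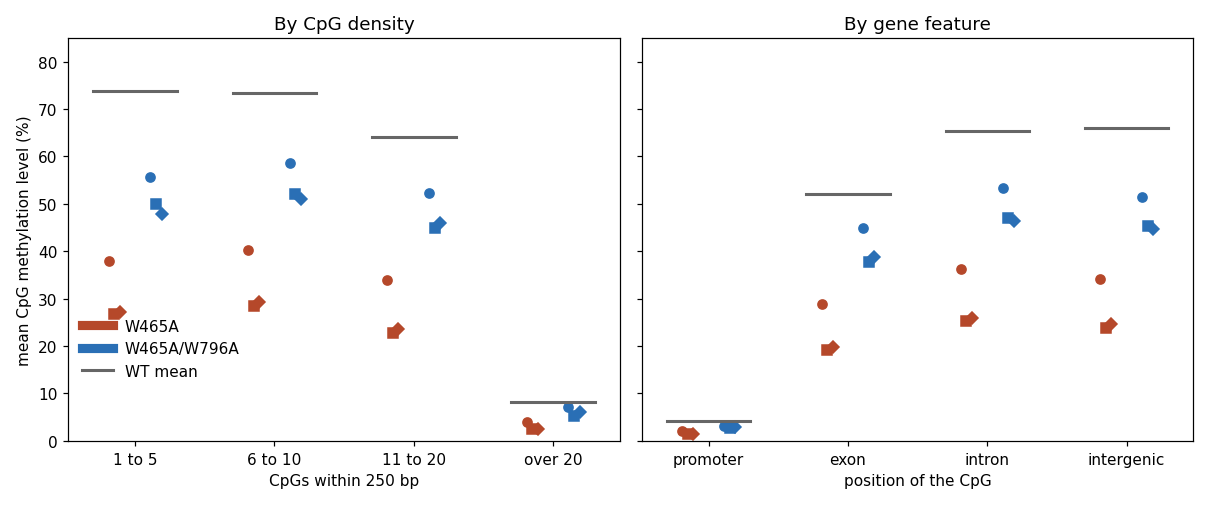
Mean CpG methylation level (%) by the number of CpGs within 250 bp (left) and by gene feature (right) for W465A (red) and W465A/W796A (blue). Circles, squares and diamonds are replicates 1, 2 and 3. Grey lines are the WT mean over the CpGs also covered in the WT libraries. The blue points lie above the red ones in each class and below the WT line, and at dense CpGs and promoters all values stay under 9%.

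Read as a share of the gap to WT, the mean was not lower at dense CpGs. The share was 48.1% ± 9.52 (SD, n = 3) at the sparsest CpGs, 52.3% ± 9.97 and 55.6% ± 10.996 in the next 2 classes, and 55.8% ± 16.2 at the densest. W465A/W796A replicates 1 and 3 followed this order, and replicate 2 was lowest (40.2%) at the densest CpGs. From 5 bp outward the mean share also fell with the distance to the nearest CpG. The share was 55.5% for CpGs with a neighbour at 2 to 4 bp and 55.7% ± 11.3 (SD, n = 3) at 5 to 9 bp. It was 51.1% at 20 to 49 bp and 44.2% ± 9.17 for CpGs with none within 250 bp. The 5 to 9 bp class, which had the highest mean, was above the last class by 14.4, 5.83 and 14.3 points in the 3 replicates. The mean of this difference ranged from 10.04 to 14.3 when single libraries were left out. Shares of contexts use the same libraries and reference means, so these are descriptions and carry no p.

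Among gene features, promoters differed least. Promoter CpGs (within 500 bp of a start site) were at 2.17%, 1.56% and 1.52% in W465A and at 3.25%, 2.80% and 2.84% in W465A/W796A. The difference was 1.21 points, with no overlap, and the WT mean was 4.18% over the promoter CpGs also covered in the WT libraries. Intergenic CpGs differed by 19.6 points, introns by 19.8 points and exons by 17.9 points. The contrast between intergenic and promoter CpGs was 18.4 points (exact two-sided permutation p 0.1, 0.125 adjusted over 5 contrasts), and on the log2 scale it was 0.01 (exact permutation p 0.8, adjusted 0.8). The restored share was also lowest in promoters, at 43.3% ± 9.14 (SD, n = 3). It was 57.1% ± 12.8 in exons, 53.3% ± 10.4 in introns and 49.8% ± 9.26 between genes. Promoters were 7.25 to 10.4 points under all CpGs in each replicate, and exons were 2.66 to 11.2 points over intergenic CpGs in each.

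The low share was not limited to the start site itself. It was 42.8% in the 250 bp upstream, 44.7% in the first 250 bp downstream, 42.1% at 500 to 1000 bp downstream and 45.2% at 500 to 1000 bp upstream. Farther out, transcribed sequence stood above upstream sequence. CpGs 2000 to 10000 bp downstream had a share of 55.9% and those as far upstream 51.4%. The downstream excess was 6.57, 2.45 and 4.70 points in W465A/W796A replicates 1 to 3.

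**Figure D2:**
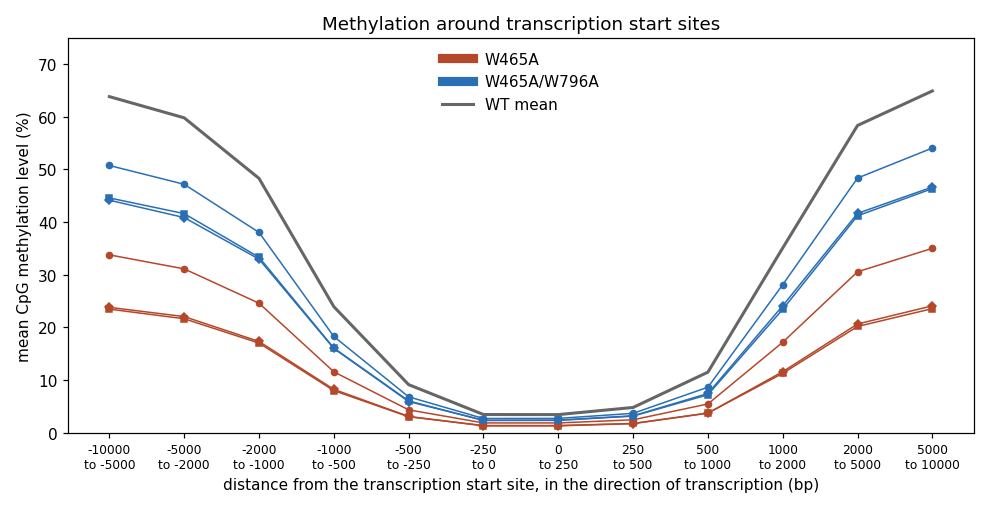
Mean CpG methylation level (%) by distance from the transcription start site (bp, unequal classes, negative upstream) for each W465A (red) and W465A/W796A (blue) library. Grey is the WT mean over the CpGs also covered in the WT libraries. Circles, squares and diamonds are replicates 1, 2 and 3. All groups dip under 5% within 250 bp of the start, and the blue lines lie between the red and grey ones on both sides.

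Repeat-masked CpGs were at 33.1%, 22.4% and 23.5% in W465A and at 52.2%, 45.3% and 45.7% in W465A/W796A. The difference was 21.4 points there and 15.2 points at unmasked CpGs, a contrast of 6.13 points (exact two-sided permutation p 0.1, 0.125 adjusted over 5 contrasts). The restored shares were nearly equal, at 53.0% ± 9.75 (SD, n = 3) and 52.2% ± 10.4. Between genes, masked CpGs had a share 2.95 points higher, and this was 0.06 points in W465A/W796A replicate 2. The deposited table names no repeat families, so families were not separated.

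The classes by flanking bases differed as well. CpGs flanked by A or T on both sides (WCGW) differed by 17.8 points and those flanked by C or G (SCGS) by 12.9 points, a contrast of 4.95 points (exact two-sided permutation p 0.1, 0.125 adjusted over 5 contrasts). On the log2 scale the contrast was -0.028 (exact permutation p 0.5, adjusted 0.625). Since CpG density differs between these classes, they were also compared at sparse CpGs. There SCGS differed more, by 22.5 points against 18.9, and its restored share was 51.5% against 45.1% for WCGW. The excess was 2.76, 6.90 and 9.34 points in the 3 replicates. Of the flanks at sparse CpGs, leaving out CCGG, ACGT had the lowest share (41.9%) and CCGC the highest (51.8%). CCGG is the MspI site, where the library fragments were cut, and its 595 sparse CpGs were at 4.40% in W465A and 7.07% in W465A/W796A.

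**Figure D3:**
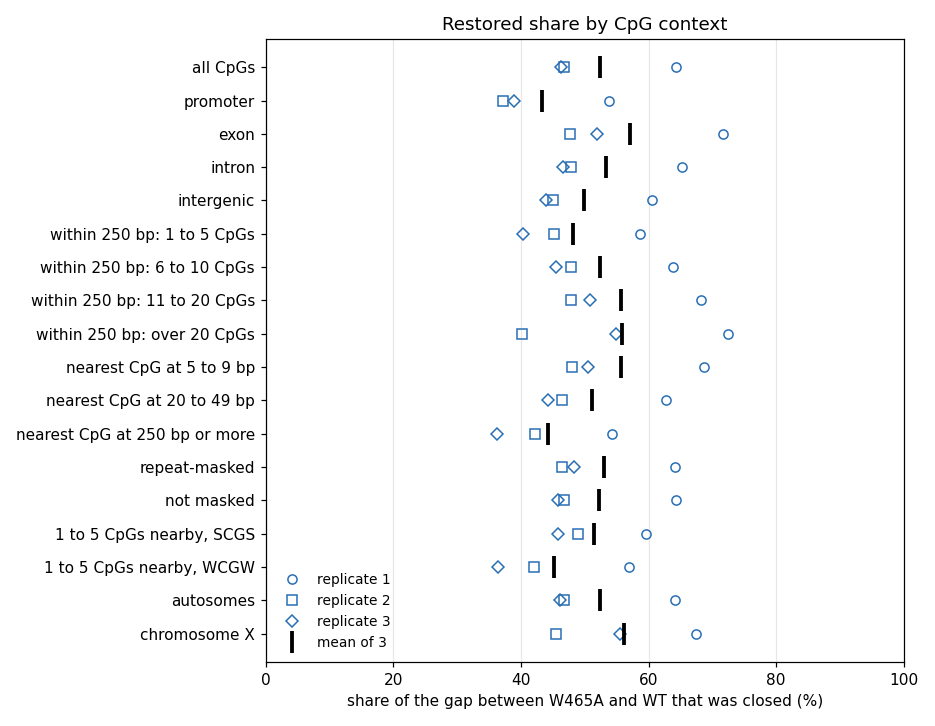
Share of the gap between the W465A and WT means that was closed in W465A/W796A (%), by CpG context. Open circles, squares and diamonds are replicates 1, 2 and 3 and bars are their means. Replicate 1 is highest in each context shown, and the means run from 43.3% in promoters to 57.1% in exons.

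The restored share varied little between chromosomes. Over the autosomes it ran from 50.2% on chromosome 11 to 53.9% on chromosome 5. Chromosome 11 was under the other autosomes by 0.25, 4.95 and 1.79 points in the 3 replicates, and its read share moved with the group, as given above. The part of that read share in the result was not tested. On the X the level was 17.8%, 11.5% and 12.3% in W465A and 31.2%, 25.8% and 27.7% in W465A/W796A, a difference of 14.3 points and a 2.03-fold level. The contrast with autosomes was -1.67 points (exact two-sided permutation p 0.2, 0.2 adjusted over 5). It changed sign to 0.26 on the log2 scale (exact permutation p 0.1, 0.167 adjusted) and to 1.28 points at CpGs with 10 reads. Cut into 100 kb bins, the genome gave 11794 with at least 50 CpGs and a WT mean at least 10 points above the W465A mean. The choice used the W465A and WT levels, so these bins do not stand for the whole genome. All 3 W465A/W796A libraries were above all 3 W465A libraries in 11548 of them (97.9%). The restored share per bin had a median of 52.4%, and 90% of bins lay between 39.5% and 68.7%. By reference CpG count the median was 50.2%, 51.4%, 53.2% and 54.8% from the poorest to the richest quartile.

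To find single places, reads were summed over 1 kb tiles with at least 3 CpGs and tested across all 18 libraries with a quasi-binomial logistic model. Of 245694 tiles, 66911 (27.2%) were called higher in W465A/W796A, meaning a Benjamini-Hochberg adjusted p under 0.05 with a pooled difference of 10 points or more, and 2 (0.000814%) were lower. All 3 W465A/W796A libraries were above all 3 W465A libraries in 128796 tiles (52.4%) and below them in 788 (0.321%). The count of higher tiles rested on single libraries, since it dropped to 5 when W465A replicate 3 was left out and to 18 when W465A/W796A replicate 1 was. At an unadjusted p under 0.05 there were 74839 and 70151 tiles in these fits, against 117959 with all libraries. Leaving out W465A replicate 1 or 2 gave 87558 or 12092, leaving out W465A/W796A replicate 2 or 3 gave 47547 or 39712, and the count was 59045 of 206709 without chromosomes 8 and 11. By limma 17960 tiles were higher, and by edgeR's quasi-likelihood test 33679.

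The 5 tiles with the largest pooled difference, by the naming rule, had means of 10.3% to 24.4% in W465A and 67.7% to 87.5% in W465A/W796A. In a tile with 6 CpGs in Rps6kc1, a kinase gene, at chr1:190908001-190909000, the level was 23.6%, 6.32% and 6.41% in W465A and 88.3%, 51.9% and 66.2% in W465A/W796A, with WT at 84.2% ± 12.4 (SD, n = 3). In a tile with 15 CpGs in Map4k4, another kinase gene, at chr1:40025001-40026000, it was 31.03%, 11.4% and 30.9% in W465A and 92.6%, 90.5% and 79.4% in W465A/W796A. WT was at 86.6% ± 5.06 there. A tile in Dlc1 at chr8:36584001-36585000 held 31.4%, 2.04% and 9.70% in W465A and 85.5%, 59.2% and 74.0% with both substitutions. A fully repeat-masked intergenic tile at chr12:14600001-14601000, 447947 bp from Fam84a, held 17.5%, 11.1% and 12.6% against 69.8%, 85.5% and 71.8%. These tiles were chosen for their difference, so their sizes are descriptions. The Map4k4 tile was at 88.3% ± 13.3 (SD, n = 3) with W796A alone and at 38.8% ± 6.88 in the triple mutant. These groups entered the choice only through the estimate of spread that all 18 libraries share.

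In 2 of the 5 the W465A/W796A mean was above the WT mean, by less than the SD of either group in Map4k4 (87.5% ± 7.06 against 86.6%). In a tile with 5 CpGs in Ywhag, which encodes a phosphoserine-binding adaptor, at chr5:135931001-135932000, W465A/W796A was at 87.2%, 52.0% and 64.0%. W465A was at 15%, 4% and 12% there, WT at 45.8% ± 15.9 (SD, n = 3) and W796A alone at 42.5% ± 14.1 (SD, n = 3). Each of the 5 calls was lost when either W465A replicate 3 or W465A/W796A replicate 1 was left out (largest quasi-binomial adjusted p 0.0558 to 0.0623). No other setting compared for single tiles lost them. The fit with each library's overall level taken out was not among the settings compared.

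**Figure D4:**
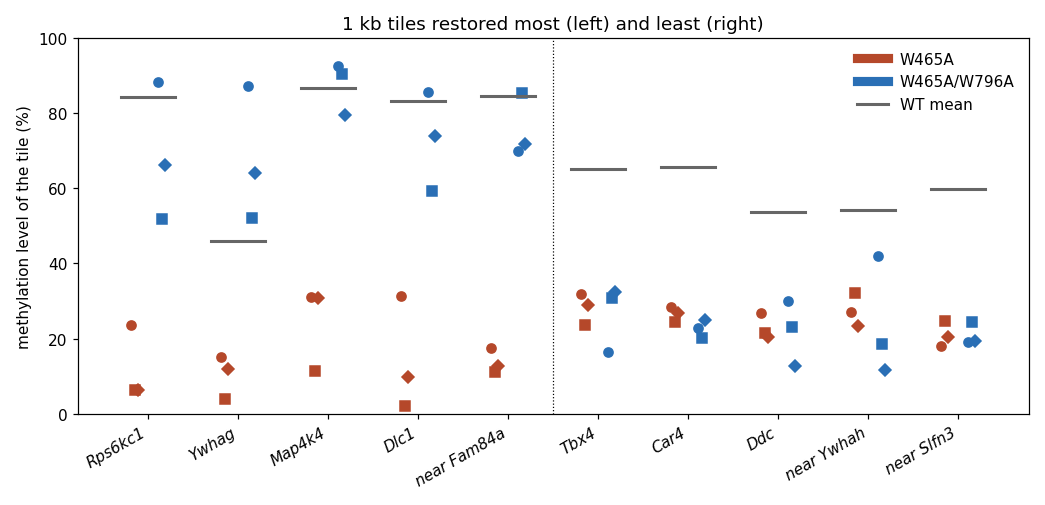
Methylation level (%) of the 5 tiles with the largest difference (left of the dotted line) and the 5 with the smallest among tiles at 60% or more in pooled WT reads and 30% or less in pooled W465A reads (right). Points are W465A (red) and W465A/W796A (blue) libraries, with circles, squares and diamonds for replicates 1, 2 and 3, and grey lines are the WT mean. On the left the groups do not overlap, and on the right they overlap in each tile.

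The tiles restored least come from the 12745 that were at 60% or more in pooled WT reads and at 30% or less in pooled W465A reads, with enough CpGs and reads. Their median difference was 28.1 points, and in 37 of them the difference was under 5 points. In a Tbx4 tile (a T-box transcription factor of the hindlimb) at chr11:85894001-85895000, the level was 31.8%, 23.7% and 28.8% in W465A and 16.5%, 30.9% and 32.5% in W465A/W796A, with WT at 65.1% ± 13.2 (SD, n = 3). In a Car4 tile (a carbonic anhydrase) at chr11:84959001-84960000 it was 28.3%, 24.4% and 26.7% against 22.8%, 20.3% and 25%. In the Ddc tile (DOPA decarboxylase) at chr11:11824001-11825000 it was 26.9%, 21.6% and 20.3% against 30.1%, 23.1% and 12.7%. The groups overlapped in each. The tile 18847 bp from Slfn3, at chr11:83234001-83235000, held 17.9%, 24.7% and 20.4% against 19.2%, 24.4% and 19.4%. A tile at chr5:33011001-33012000, 6816 bp from Ywhah, held 27.1%, 32.1% and 23.3% against 42.1%, 18.6% and 11.6%. With W796A alone the 5 tiles were at 53.4% to 66.1%.

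Of these 5 tiles, 4 lie on chromosome 11, whose share of reads was higher in W465A/W796A. Among the 20 tiles with the lowest differences 7 are on chromosome 11, which holds 1421 of the 12745. The difference was under 10 points in 1.90% of those 1421, in 1.29% of the 1005 on chromosome 8 and in 1.21% of the 10319 on the others. The part of the read share in this was not tested. The 2 tiles called lower were one at the start of Cox7c on chromosome 13 and one in Smarca2, a chromatin remodeler gene, on chromosome 19. The Cox7c tile was at 0%, 27.4% and 7.02% in W465A and 0% in each W465A/W796A library, so the groups met at 0, and its call was lost in 7 of 14 settings. The Smarca2 tile was at 24.3%, 11.7% and 20% against 0.769%, 3.75% and 7.78%, without overlap, and its call was lost in 10 of 15 settings.

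A library group outside the comparison was used to sort tiles. Tiles were classed by their level in the W464A/W465A/W796A triple mutant, among those at 70% or more with W796A alone. Where the triple mutant kept 0 to 5%, the restored share was 40.5% ± 7.06 (SD, n = 3) over 641 tiles. It was 45.7% over 4564 tiles at 5 to 10%, 50.5% over 39783 tiles at 10 to 20% and 53.2% over 65419 tiles at 20 to 30%. Above that it was 54.3% ± 9.98 over 38367 tiles at 30 to 40% and 54.0% ± 10.4 over 12611 tiles at 40% or more. The first 5 classes had the same order in each replicate, and the last lay under the one before it in replicates 2 and 3. In points the first class differed by 21.7 and the last by 18.997, with gaps to WT of 53.5 and 35.2 points.

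Density and masking were also crossed over tiles at 70% or more with W796A alone. Tiles of masked sequence with 20 or more CpGs within 250 bp of their CpGs differed by 31.2 points, from 24.3% ± 7.31 in W465A to 55.5% ± 3.55 in W465A/W796A (SD, n = 3), and 806 of 1069 (75.4%) were called higher. Masked tiles with 1 to 5 such CpGs differed by 22.7 points, and 195 of 975 (20%) were called. The dense tiles had a median of 66 reads per library and the sparse ones 21, and the part of coverage in the calls was not tested. The share restored was 53.4% ± 6.06 in the dense masked tiles, 48.2% ± 8.15 in the sparse masked ones and 59.9% ± 13.1 in dense unmasked tiles.

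When each library's overall level was taken out of the fit, 601 tiles (0.245%) were called above the library-wide difference and 8 below it. The 601 were chosen on these same 6 libraries, so their levels are a description. They went from 17.1% ± 6.54 in W465A to 61.3% ± 5.10 in W465A/W796A (SD, n = 3), which closed 77.3% of the gap to WT. Masked CpGs made up 30.3% of their CpGs and 13.5% over all tiles. On the X, 16 tiles were among them, with 85.8% of CpGs masked against 48.3% in all 1570 X tiles. The median coverage was 96 reads in the 601 tiles and 36 in all tiles.

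Promoters were mostly near 0 in both groups. Of 13757 promoters, 77 (0.56%) were higher and none lower by the same test and threshold, and 1814 reached an unadjusted p under 0.05. Leaving out W465A replicate 1 gave 183 calls, leaving out W465A/W796A replicate 2 gave 10, and each of the other 4 libraries, left out in turn, gave 0, with 1203 to 1619 at an unadjusted p under 0.05. There were 89 calls of 11759 without chromosomes 8 and 11, 14 with the replicate number as a block, 97 by edgeR and 0 by limma (1781 at an unadjusted p under 0.05), so single promoter calls are not firm. All 3 W465A/W796A libraries were above all 3 W465A libraries in 2218 promoters (16.1%) and below them in 398 (2.89%). The median promoter differed by 0.11 points. In the 2060 promoters in which WT was at least 10 points above W465A, the median share restored was 47.4%, and 80% of them lay between 14.6% and 76.2%.

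The 12 promoters with the largest differences among those called were at 37.6% or less in W465A on average and at 51.2% to 75.5% in W465A/W796A. Hal, which encodes histidine ammonia-lyase, was at 30%, 13.8% and 23.3% in W465A and 78.1%, 62.7% and 61.1% in W465A/W796A, with WT at 72.8% ± 8.05 (SD, n = 3). Flrt1, a transmembrane protein gene, was at 27.96%, 13.5% and 25% against 73.3%, 69.8% and 55.1%. Aldoart2, a retrogene of aldolase, was at 17.5%, 3.20% and 10.3% against 53.3%, 46.0% and 54.8%. Klb, the FGF co-receptor beta-klotho, was at 17.3%, 16.0% and 14.1% against 70.8%, 38.6% and 47.7%. The others were Sh3rf2, Lrrtm2, Mmrn2, Rps12-ps3, Gm10260, Gm45808, AC140267.1 and AC131692.1. Rps12-ps3 is a pseudogene copy of a ribosomal protein gene, and in it W465A/W796A replicates 1 and 3 (82.4% and 82.3%) were above the WT mean of 56.6% ± 10.6 (SD, n = 3) and replicate 2 (42.9%) was below it. Whether reads of near-identical copies were split there was not tested, so its level is uncertain.

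The 8 promoters restored least, among 180 that were methylated in WT and low in W465A, differed by 2.48 to 16.5 points where the median of the 180 was 26.2. Camk2a, a neuronal kinase gene, was at 29.9%, 18.8% and 25.6% in W465A and 29.8%, 33.3% and 18.6% in W465A/W796A, with WT at 57.3% ± 16.5 (SD, n = 3). Gnat1, the rod transducin gene, was at 30.3%, 26.3% and 28.9% against 35.5%, 34.0% and 34.9%, with WT at 62.5% ± 10.97 (SD, n = 3). The Gnat1 groups did not overlap, and 18.5% of the gap was closed. The transcription factor gene Tbr1 was at 20.1%, 23.8% and 19.9% against 35.1%, 39.1% and 29.4%. The others were Esm1, Fut2, Pkp3, Mcemp1 and Trim29, with restored shares of 27.5% to 38.9%. None of the 8 was called, where 21 of the 180 were, and the 8 were chosen for their small differences.

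Of 17428 gene bodies, 11605 (66.6%) were higher and none lower, with 13526 at an unadjusted p under 0.05 and 1 lower by edgeR. The count was 12546 without W465A replicate 1, 10102 of 15020 without chromosomes 8 and 11, 7543 without W465A replicate 2, 0 without W465A replicate 3 (9791 at an unadjusted p under 0.05) and 1 without W465A/W796A replicate 1, so it too rested on single libraries. In 14758 bodies (84.7%) all 3 W465A/W796A libraries were above all 3 W465A libraries, and the median share restored was 54.5%. The largest differences among those called were in B230219D22Rik, Tmem230, Mrpl28 (mitochondrial ribosome), Srp9 (signal recognition particle) and Pstk (selenocysteine synthesis). Their means went from between 8.63% and 25.4% in W465A to between 56.9% and 75.6% in W465A/W796A. Mrpl28 was at 36.7%, 21.2% and 18.3% in W465A and 78.9%, 70% and 77.97% in W465A/W796A. The smallest were in Tnnt1 (a muscle troponin), Serpina16, Hfe (iron uptake), Cyp3a57 and Serpinb6c, which closed 15.3% to 20.1% of the gap. Hfe was at 19.5%, 16.7% and 14.6% in W465A and 22.6%, 25.5% and 28.8% in W465A/W796A, with WT at 65.8% ± 13.4 (SD, n = 3).

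Most germline promoters were higher without passing the test one by one. These genes act in meiosis, piRNA silencing and spermatogenesis and are methylated in ES cells. Of 29 on the list, 22 promoters were measured, and in 20 of them all 3 W465A/W796A libraries were above all 3 W465A libraries, against 16.1% of all promoters. The median WT level over all promoters was only 0.61%, while 21 of these 22 were at 20% or more in WT. Among other lists mostly methylated in WT, 22 of 35 keratin and 8 of 17 olfactory receptor promoters lay above in the same way. The mean level of the germline promoters was 21.3%, 12.8% and 15.4% in W465A and 43.3%, 33.4% and 43.5% in W465A/W796A, with WT at 51.7%. The median share restored was 69.1% over the 21 with a gap of at least 10 points, against 47.4% over all promoters with such a gap. Only Dmrtb1, a regulator of the mitosis to meiosis switch, passed the test (6.54% ± 1.54 to 24.3% ± 6.61, SD, n = 3, quasi-binomial adjusted p 0.0378), and its call was lost in 9 of 14 settings. Fkbp6 was at 24.6%, 18.6% and 13.3% in W465A and 54.3%, 50.3% and 52.2% in W465A/W796A over 28 CpGs (quasi-binomial adjusted p 0.0536). Dazl, an RNA-binding protein of germ cells, was at 29.95%, 17.9% and 26.5% against 58.2%, 46.8% and 54.6% over 47 CpGs. The 2 promoters whose groups overlapped were Tdrd1 and Tdrd9, of the piRNA pathway. Tex11 (152%) and Sycp1 (119%) had W465A/W796A means above WT, and Tdrd1 had the lowest share (33.1%).

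**Figure D5:**
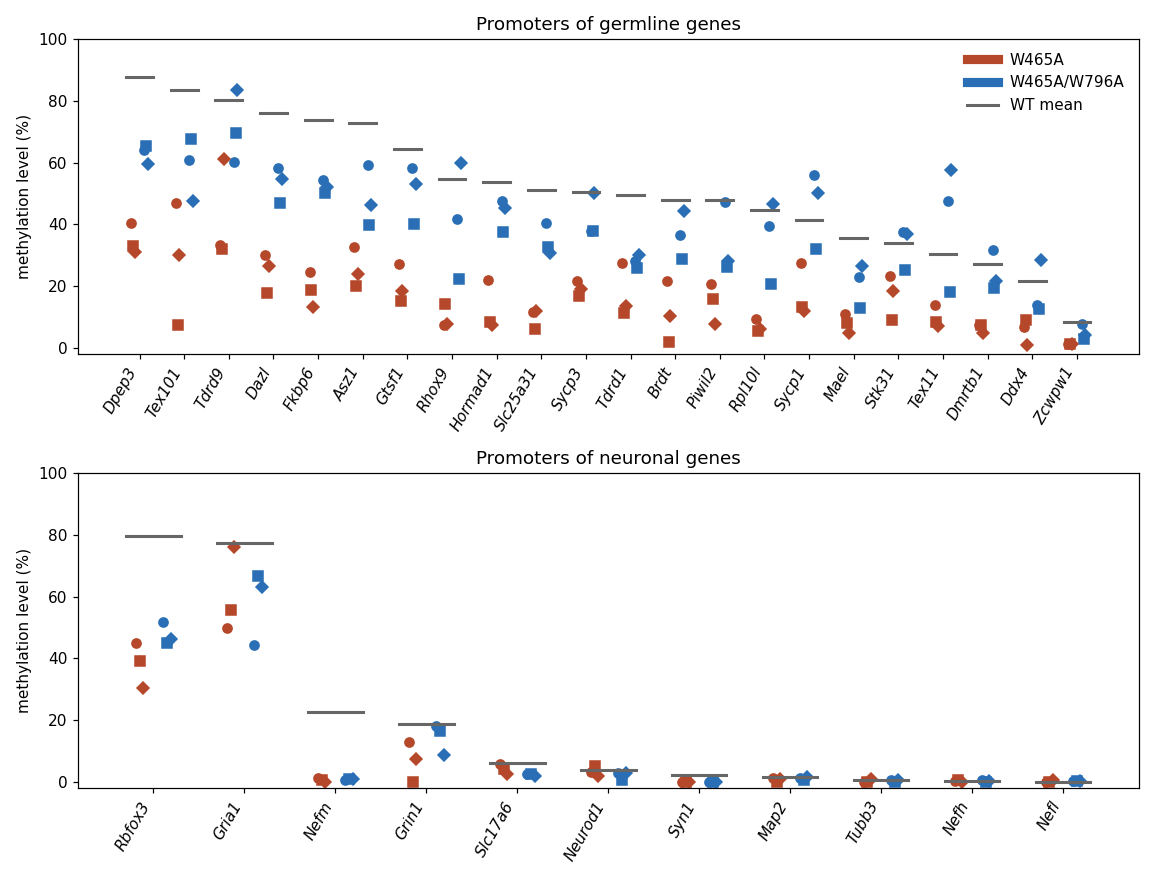
Methylation level (%) of promoters of germline genes (top) and neuronal genes (bottom), in order of the WT mean (grey lines). Points are W465A (red) and W465A/W796A (blue) libraries, with circles, squares and diamonds for replicates 1, 2 and 3. In 20 of 22 germline promoters all blue points lie above all red points, and in none of the 11 neuronal promoters do they. The WT mean is at 20% or more in 21 of the germline and 3 of the neuronal promoters.

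Of 11 neuronal and 35 Hox promoters measured none was called, where 0.56% of all promoters were, so the calls say nothing about these lists. None had all 3 W465A/W796A libraries above all 3 W465A libraries, against 16.1% of all promoters. Only 3 of the 11 neuronal and 5 of the 35 Hox promoters were at 20% or more in WT, so most were low in WT as well. Over the 4 neuronal promoters with a gap of 10 points the median share restored was 12.05%, and single shares ran from -15.1% in Gria1 to 64.0% in Grin1. Nefm, a neurofilament gene, was at 1.41%, 0.574% and 0% in W465A and 0.791%, 1.16% and 0.962% in W465A/W796A over 49 CpGs, while WT was at 22.7% ± 13.5 and W796A alone at 65.5% (n = 3). Rbfox3, a splicing factor of neurons, was at 38.2% ± 7.38 and 47.6% ± 3.68 (SD, n = 3), under the WT level of 79.6% ± 2.13. Hox promoters, which pattern the body axis, had a mean of 4.92% ± 0.810 in W465A, 4.67% ± 0.523 in W465A/W796A (SD, n = 3) and 10.8% in WT. In the 7 with a gap of 10 points the median share was 5.60%. Hox gene bodies differed by a median of 0.25 points over 36 genes, none called, against 19.04 points over all bodies. Neuronal gene bodies differed by a median of 14.7 points over 12 genes, and 6 (50%) were called, against 66.6% of all bodies. In 8 of the 12 all 3 W465A/W796A libraries were above all 3 W465A libraries, against 84.7% of all. Their median share restored was 44.7%, against 54.5% over all bodies.

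Imprinted genes were mixed. None of 19 measured promoters was called, where 0.56% of all were, and the median differed by 0.29 points, where that of all was 0.11. Nnat was at 1.05%, 0.955% and 0.593% in W465A and 0.179%, 0.463% and 1.04% in W465A/W796A over 39 CpGs, with WT at 22.7% ± 13.1 and W796A alone at 37.3% (n = 3). Gnas, which encodes a G protein subunit, was at 5.10%, 0.267% and 3.55% against 29.0%, 10.6% and 15.2%, next to a WT mean of 18.6% ± 15.0 (SD, n = 3). Grb10 was at 19.05% ± 7.94 and 32.2% ± 1.013 (SD, n = 3) with WT at 58.0%. Of 23 imprinted gene bodies, 12 (52.2%) were called, against 66.6% of all bodies, with Rtl1 the largest (45% ± 10.4 to 72.5% ± 7.06, SD, n = 3) and Nnat among those that were not. The bulk levels do not separate the parental alleles.

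Of the genes of the maintenance machinery, 18 had a measured promoter and none was called, where 0.56% of all promoters were. The promoter differences ran from -0.66 to 0.42 points. In bodies 14 of 24 were called, against 66.6% of all bodies. The body of Dnmt1 itself was at 26.4%, 15.1% and 17.2% in W465A and 43.8%, 38.6% and 37.9% in W465A/W796A, with WT at 54.2% ± 6.44 (SD, n = 3). Uhrf1 was at 13.9% ± 1.13 and 33.3% ± 1.56 (SD, n = 3). Kmt5c, a histone methyltransferase, was at 20.8% ± 9.07 and 50.7% ± 6.71. Among de novo methylation and demethylation genes, 10 of 11 bodies (90.9%) were called, against 66.6% of all, and 1 of 7 promoters, against 0.56% of all, that of Dnmt3l, a cofactor of de novo methylation. Dnmt3l was at 25%, 3.70% and 7.32% against 69.4%, 47.8% and 50% over 3 CpGs, with WT at 83.5% ± 9.42 (SD, n = 3), and its call was lost in 9 of 13 settings.

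None of 11 pluripotency promoters was called, where 0.56% of all were, and Pou5f1, Sox2 and Klf4 were under 1% in all 6 libraries. Nanog was at 0% in each W465A library and at 1.96%, 0% and 2.08% in W465A/W796A over 4 CpGs. The promoter of Dppa5a was at 0% in each W465A library and at 17%, 3.33% and 15.6% in W465A/W796A over 4 CpGs, without overlap, with WT at 4.40% ± 7.61 (SD, n = 3) and a quasi-binomial adjusted p of 0.109. In bodies 7 of 17 (41.2%) were called, against 66.6% of all, led by Dppa2 (12.3% ± 8.86 to 47.3% ± 17.8, SD, n = 3) and Dppa4 (26.6% ± 12.9 to 56.8% ± 6.83). Among larger families, zinc finger gene bodies had 223 of 341 called (65.4%), near the 66.6% of all bodies, and a median share of 56.6%, where that of all was 54.5%. Olfactory receptor bodies had 58 of 175 called (33.1%) and a median share of 42.6%, vomeronasal receptor bodies 42 of 84 (50%) and 45.2%, and protocadherin bodies 14 of 53 (26.4%) and 43.3%. All 3 W465A/W796A libraries were above all 3 W465A libraries in 108 olfactory, 63 vomeronasal and 49 protocadherin bodies, against 84.7% of all bodies. The median protocadherin body differed by 8.42 points, and a call needed 10. Ribosomal protein bodies had 16 of 70 called (22.9%), and the median share over the 25 with a gap was 72.8%. No list had a gene called lower, where none of all 13757 promoters and 17428 bodies was.

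The same substitution was added to other backgrounds. Over the tiles, the mean effect of W796A was 19.6 points on W465A and, on W464A/W465A, -0.26 points, a difference of 19.9 points (SE 4.56 between libraries). A tile-by-tile test compared the effects as changes in log-odds, the scale of the logistic model, with a 10-point minimum for a call. It called 0 of 245694 (edgeR also 0, limma 1) and gave 51682 at an unadjusted p under 0.05. Mean tile levels were 20.7% in W464A/W465A, 28.3% in W465A and 65.4% in WT, so equal changes in log-odds are not equal in points. Against the effect of 0.07 points in WT, the difference was 19.6 points (SE 9.06). By the same log-odds test 7352 tiles (2.99%) were called higher and 8 (0.00326%) lower. That count was 817 by edgeR and 0 by limma.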

How the data were processed

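The libraries are enhanced reduced representation bisulfite sequencing (eRRBS) of genomic DNA cut with MspI, BfaI and MseI, per the labels' protocols. Reads were processed with cutadapt 1.2.1, Bismark 0.18.1 and Bowtie 1.2 on mm10, per the submitters' processing notes. Removal of duplicates is not given in the sources used here. The deposited table holds raw counts made by the authors, methylated and total reads for each CpG in each library, with both strands joined. All 21867550 positions are CpGs of GRCm38.

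Promoters are 500 bp either side of a GENCODE start, gene bodies the rest of the gene. Summed counts of tiles, promoters and bodies (at least 3 CpGs) were fitted across the 18 libraries by quasi-binomial logistic regression (12 residual degrees of freedom), with overdispersion squeezed as in limma, an F test and Benjamini-Hochberg adjustment, in Python 3.11.15. It was also run on simulated counts with few changed tiles and no library-wide shifts. That run cannot show how the test behaves with shifts such as those between these libraries. Limma 3.58.1 and edgeR 4.0.16 were alternatives. Features named as largest were called, did not overlap between groups and had 5 CpGs and 50 reads in each library (12 promoters, 5 tiles, 5 bodies). Those named as least had pooled WT at 60% or more and W465A at 30% or less (8, 5 and 5). Members and gene lists were chosen with earlier results of these data known. PCR reads are not independent molecules, and precision rests on the spread between replicates. Protein sequences were not used here.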

Additional observations from a re-analysis of the deposited data

Results flagged for a closer look

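The mean effect of W796A over tiles was larger in the W465A background than in WT, but the number of tiles called depended on the test used. In the test of the difference between the effects, made on the log-odds scale, 7352 of 245694 tiles were called higher. The mean effect was 19.6 points in W465A and 0.07 points in WT. The difference of 19.6 points had an SE of 9.06 between libraries. The count was 817 by edgeR and 0 by limma (44910 at an unadjusted p under 0.05). This test was not refitted without single libraries, so how far its count rests on any of them is not known. No group has more than 3 libraries, so single libraries were not tested as outliers.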

How the results depend on the processing

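The mean difference stayed positive in each alternative, from 14.2 to 18.8 points when single libraries were left out, and the restored share then ran from 46.4% to 57.1%. Leaving out single libraries gave 15.5 to 20.5 points for the density contrast, 16.4 to 21.5 for intergenic against promoter, 5.63 to 6.81 for masking, 3.78 to 6.43 for flanks and -2.49 to -1.20 for the X. Contrasts that changed sign were those of density (-0.31), flanks (-0.028) and the X (0.26) as log2 ratios, and that of the X at 10 reads (1.28 points); the cause was not tested. Without single libraries, higher tiles ran from 5 to 87558 and lower ones from 0 to 5, promoters from 0 to 183 and 0 to 1, and bodies from 0 to 12546 and 0 to 1. Fitting only the 6 libraries gave 105447 higher and 5 lower tiles and 1004 higher promoters. Without squeezing there were 32078 and 1 tiles and 0 promoters. At 10 reads there were 17920 and 1 of 66161 tiles and 44 of 10646 promoters, and over CpGs covered in all 18 libraries 42278 tiles, fewer features being tested. A 25-point minimum left 0 lower tiles, the offset gave 601 and 8, limma 17960 and 6, and edgeR 33679 and 4. Promoters of 1000 bp either side gave 174 calls and limma 0, and edgeR called 1 body lower. The difference of effects, tested on the log-odds scale, gave 1 tile by limma against W464A/W465A, and 0 by limma and 817 by edgeR against WT. Same-numbered libraries deviated with r of 0.087, 0.022 and 0.023 over tiles, and differently numbered ones with r of -0.050 to 0.024. Values this small over tiles with few reads cannot tell whether the replicate numbers pair the libraries. With the replicate block the mean difference was 16.0 points (exact sign-flip p 0.25, the smallest possible), 65785 tiles were higher and 2 lower, and 14 promoters were higher. Settings without chromosomes 8 and 11 were chosen after seeing the data.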
